A study of Arabidopsis thaliana with 17 samples.

Results

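The genes that write, keep and erase DNA methylation in Arabidopsis thaliana, together with those that make its small RNAs, were examined for H3K27me3 in endosperm and leaf. The 34 genes were chosen by symbol or synonym in the annotation. All 34 were found, among 27444 nuclear protein-coding genes. They fall into 6 genes of CG methylation maintenance, 6 of non-CG methylation and H3K9 methylation, and 14 of RNA-directed DNA methylation. The rest are 4 DNA demethylases or homologues and 4 genes grouped as readers and other silencing.

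H3K27me3 is set by Polycomb repressive complex 2 and marks genes held silent. DNA methylation is kept at CG sites by MET1 with the help of VIM proteins. Elsewhere it is kept by CMT enzymes that read H3K9 methylation, or set by DRM enzymes guided by small RNAs. In the endosperm the pathway is known for its link to imprinting: the glycosylase DME removes methylation in the central cell, before fertilization, so the maternal genome enters the seed with less of it.

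CUT&RUN, in which a nuclease tethered by an antibody cuts out the chromatin bound, had been done on sorted nuclei. Endosperm nuclei came from F1 seeds of Col mothers and Ler fathers, 4 days after pollination, and were sorted at 6N DNA content. They were either fixed (1% formaldehyde, 8 min) or left unfixed, and each treatment had 2 H3K27me3 libraries. Nuclei from leaf, of 2N, 4N and 8N content, came from 3-week-old Col plants and gave 1 H3K27me3 library. The sort used DNA content alone, and leaf is of Col only. Each of the 5 H3K27me3 libraries has a list of domains called by the authors. A further table gives reads per 150 bp bin assigned to the Col (maternal) or Ler (paternal) genome for H3K27me3 and H3, pooled over endosperm libraries, with 12189039 H3K27me3 and 7638577 H3 reads in all.

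Domains covered 19.8 and 20.1 Mb in the fixed endosperm lists, 21.3 and 12.7 Mb in the unfixed endosperm lists, and 20.5 Mb in leaf, so unfixed replicate 2 stood apart. The mark at tissue markers can only describe the mark, since it does not measure expression. Of 6 endosperm genes, 2 were marked in all endosperm lists and 5 in leaf. For seed coat genes the counts were 1 and 3 of 6, for embryo genes 1 and 4 of 4, and for leaf photosynthesis genes 1 and 1 of 5. In bulk nuclei, fewer nuclei with the mark and less mark per nucleus cannot be told apart.

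Genes with at least 50% of the body under domains of a list count here as marked in it. By that rule most of the silencing genes were unmarked in both tissues, and the few that were marked differed between tissues. In endosperm, VIM1, VIM3, SUVH9 and RDR2 were marked in each of the 4 lists, and no other member was marked in any of them. In leaf, DRM1, AGO9 and VIM1 were marked. Those 4 of 34 members (11.8%) compare with 20.4% and 20.2% of all genes marked in the fixed lists, 21.6% and 16.0% in the unfixed lists, and 11.9% in all 4 together. The leaf count is 3 of 34 members (8.82%), where 20.3% of all genes were marked. The 3 members VIM3, SUVH9 and RDR2 were marked in every endosperm list and not in leaf, a class that holds 2.31% of all genes. VIM1 alone was marked in all endosperm lists and in leaf, as were 9.58% of all genes. With at least 80% cover asked for, VIM1 stayed marked in every endosperm list but not in leaf. DRM1 and AGO9 were marked in leaf but not in any endosperm list, a class that holds 2.94% of all genes. The other 28 members were marked in no list, as were 69.1% of all genes. Leaf has 1 library, so the difference between tissues has no replicate check and no test.

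**Figure D1:**
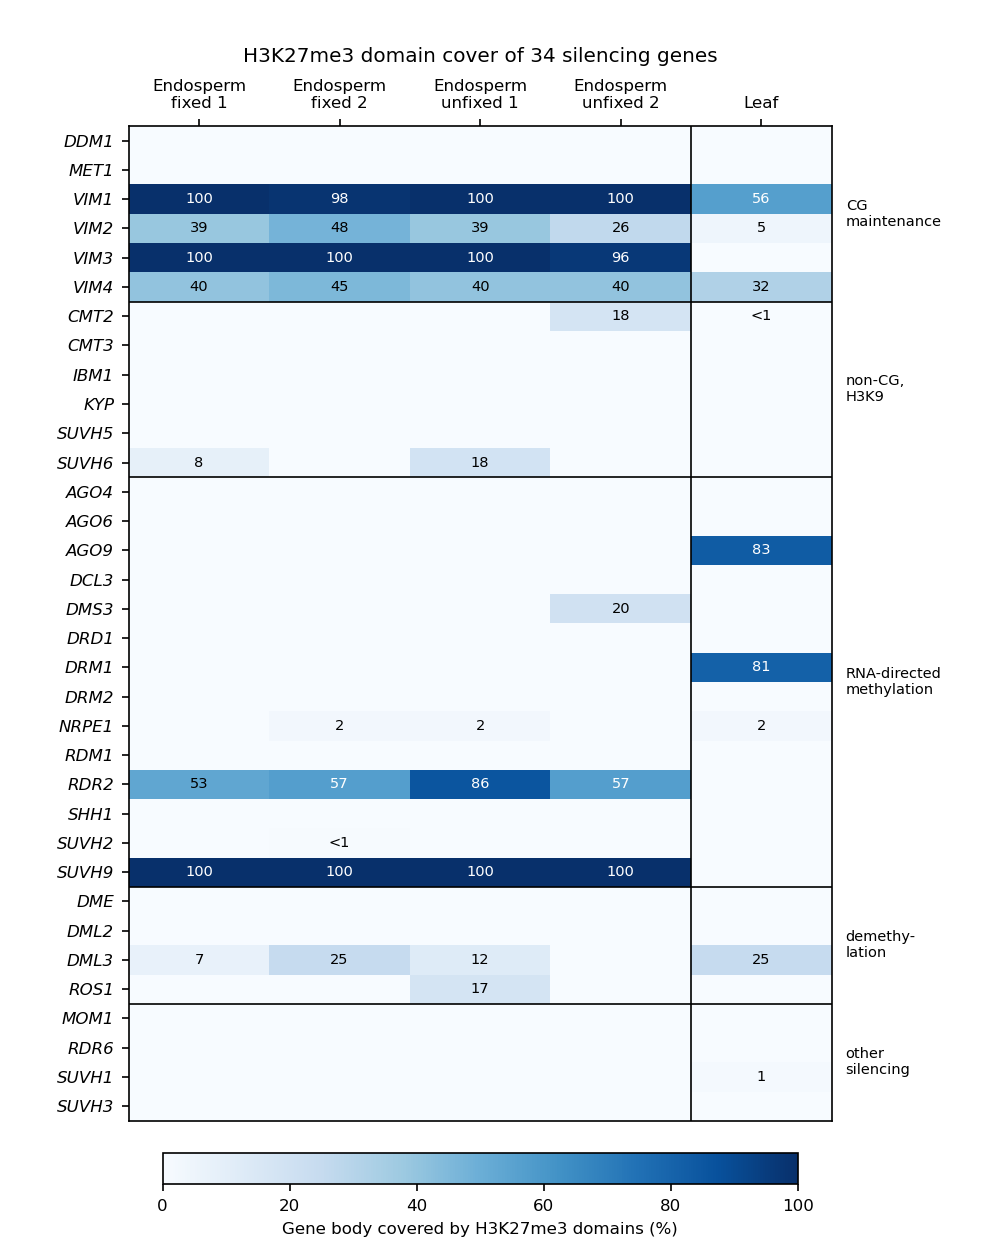
Percent of each gene body covered by H3K27me3 domains (colour, and number where above 0) in the 4 endosperm lists and the leaf list, for the 34 genes grouped by role. VIM1, VIM3, SUVH9 and RDR2 are at 53.3% or more in every endosperm list, whereas DRM1 and AGO9 are at 81.2% and 82.9% in leaf and at 0% in every endosperm list.

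CG maintenance rests on MET1, the CG methyltransferase, on the nucleosome remodeller DDM1, and on VIM proteins, which bind hemimethylated CG sites. MET1 and DDM1 had no domain on the gene body in any of the 5 lists. The VIM genes all carried the mark over some or all of the body in endosperm. VIM1 was covered over 100% and 98.4% in the fixed endosperm lists, 100% in both unfixed lists, and 56.5% in leaf. VIM3 was covered over 100% in both fixed lists, 100% and 96.5% in the unfixed lists, and 0% in leaf.

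VIM2 was covered over 38.9% and 47.6% in the fixed lists, 38.9% and 26.2% in the unfixed lists, and 4.6% in leaf. VIM4 was covered over 40.4% and 45.4% in the fixed lists, 40.4% in both unfixed lists, and 31.8% in leaf. VIM2 and VIM4 thus stayed under 50% in every list. They are neighbours on chromosome 1, and each has a stretch that no list covers: 1800 bp in VIM2 (24590401 to 24592200) and 1650 bp in VIM4 (24584251 to 24585900). In the table of reads, 10 of the 12 bins in the VIM2 stretch and 9 of the 11 in the VIM4 stretch held no allele-assigned read, against 0 of 11 and 4 of 10 bins in the rest of these genes. The VIM genes are taken here as close copies of each other, though their sequences were not compared. The treatment of reads that match several copies was not given in the sources used here, so the cover, the read counts and all values computed from them are uncertain for VIM2, VIM3 and VIM4.

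At VIM1 and VIM3, leaf carried the mark on either side of the gene and less or none over it. In endosperm, VIM1 lay in a domain of 15750 bp in fixed replicate 1 (chromosome 1, 21406351 to 21422100) that also took in VIM5 and AT1G57830. The same stretch was broken in leaf into a domain of 8850 bp ending at 21415350 and one of 7950 bp starting at 21417151, so that the central stretch of VIM1, of 3 equal ones, was inside a domain over 100% of its length in every endosperm list and over 0% in leaf. VIM3 lay in a domain of 15450 bp in fixed replicate 2 (chromosome 5, 15827701 to 15843150) with 3 other genes. In leaf, 2 of these, AT5G39540 and AT5G39560, were covered over 100% and 92.6%, and the nearest leaf domain ended 477 bp from VIM3. VIM5, a paternally expressed relative of VIM1, was covered over 100% in all 5 lists.

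In RNA-directed DNA methylation, RDR2 copies Pol IV transcripts into double strands, DCL3 dices them, AGO4, AGO6 and AGO9 bind the small RNAs, and SUVH2 and SUVH9 bind methylated DNA and help bring Pol V to it. DRM2 is the main methyltransferase of this route, and DRM1 is its close relative. SUVH9 was covered over 100% in both fixed endosperm lists, 99.9% in both unfixed lists, and 0% in leaf. Its partner SUVH2 had cover of 0.559% in fixed replicate 2 and none in the other 4 lists.

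Cover next to SUVH9 varied between lists. Of the 1000 bp next to the gene, domains covered 100% and 55% in the fixed lists and 49.3% and 34.3% in the unfixed lists on the side of lower coordinates, and 40.0% and 100% in the fixed lists and 40.4% in both unfixed lists on the other side. The domain holding it spanned 5850 bp in fixed replicate 1 (chromosome 4, 7821301 to 7827150), 27300 bp in fixed replicate 2, 3600 bp in unfixed replicate 1 and 3450 bp in unfixed replicate 2. In fixed replicate 2 the domain also held MYB79 and AT4G13490, which were covered over 100% in leaf too. The nearest leaf domain began 746 bp from SUVH9.

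RDR2 was covered over 53.3% and 56.9% in the fixed endosperm lists, 85.7% and 56.9% in the unfixed lists, and 0% in leaf. RDR6, which acts in a separate small RNA route, had no domain in any list. The mark on RDR2 sat at one end. Of 3 equal stretches of the body, the one with the highest coordinates was covered over 100% in every endosperm list, and the one with the lowest over 32.3% and 0% in the fixed lists and 100% and 0% in the unfixed lists. From there the domain ran past the gene, for 7800 bp in all in fixed replicate 2 (chromosome 4, 6782251 to 6790050), and touched no other protein-coding gene. The nearest leaf domain lay 26418 bp away. Marking of RDR2 is thus close to the threshold. With at least 80% cover it held in 1 list, and with a p or q value of at most 0.001 per domain, or with the upper 75% of domains by enrichment, in 2.

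**Figure D2:**
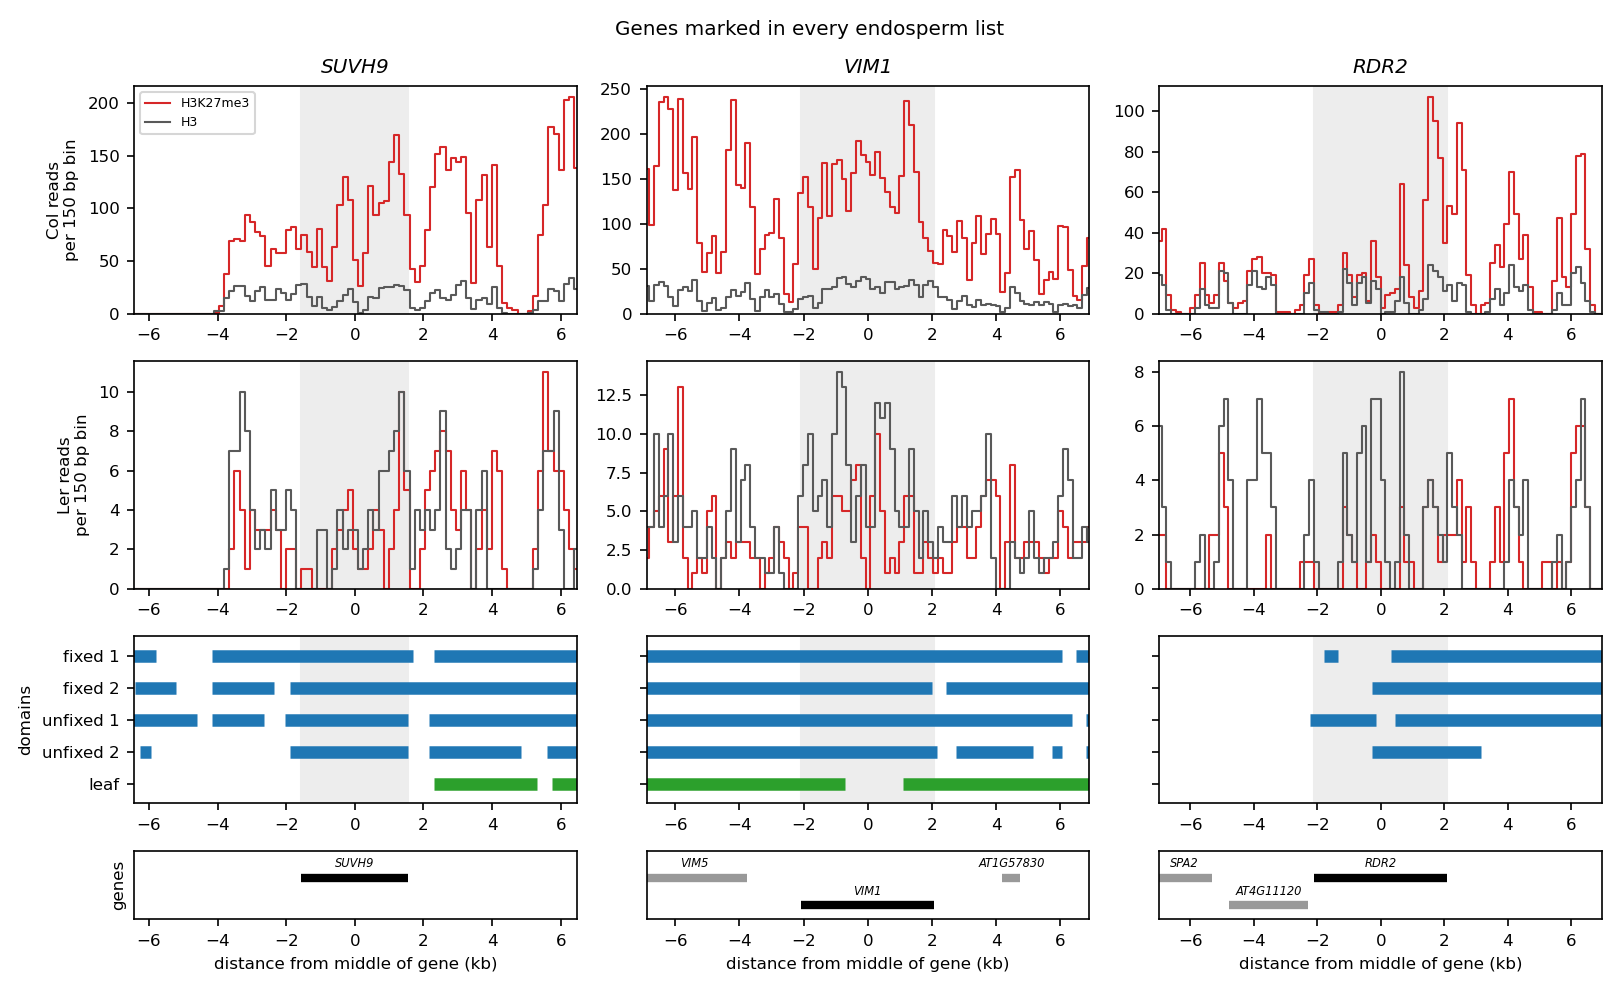
Reads per 150 bp bin on the Col genome (top) and the Ler genome (second row) for H3K27me3 and H3 in endosperm, domains of the 5 lists (below these) and genes (bottom), against distance from the middle of SUVH9, VIM1 and RDR2 in kb; the grey band is the gene body. On Col, H3K27me3 reads outnumber H3 reads over SUVH9, VIM1 and RDR2, at RDR2 most at one end (416 and 88 reads). On Ler these gene bodies hold fewer H3K27me3 than H3 reads (50 and 72 for SUVH9, 97 and 191 for VIM1, 28 and 65 for RDR2). These counts are not scaled, and genes marked in no list had medians of 1.22 H3K27me3 reads per H3 read on Col and 0.647 on Ler. Leaf domains are missing over SUVH9, over the middle of VIM1 and over all of RDR2.

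DRM1 and AGO9 showed the reverse pattern. DRM1 had no cover in any fixed or unfixed endosperm list and 81.2% in leaf, by domains of 2100 and 900 bp (chromosome 5, 4991251 to 4993350 and 4993951 to 4994850). DRM2 had no domain in any list. AGO9, an Argonaute known for its role in the ovule, had no cover in any endosperm list and 82.9% in leaf, by domains of 5850 and 1350 bp (chromosome 5, 7190251 to 7196100 and 7197151 to 7198500). AGO4 and AGO6 had no domain in any list.

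These leaf domains touched no other protein-coding gene. Unfixed replicate 1 had a domain within 1000 bp of AGO9, which covered 66.2% of that flank, where leaf covered 100%. With the upper 75% of leaf domains by enrichment DRM1 was no longer marked, whereas AGO9 was. The other genes of this route with any cover were DMS3, at 19.7% in unfixed replicate 2 only, and NRPE1, the largest subunit of Pol V, at 2.35% in fixed replicate 2, unfixed replicate 1 and leaf.

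**Figure D3:**
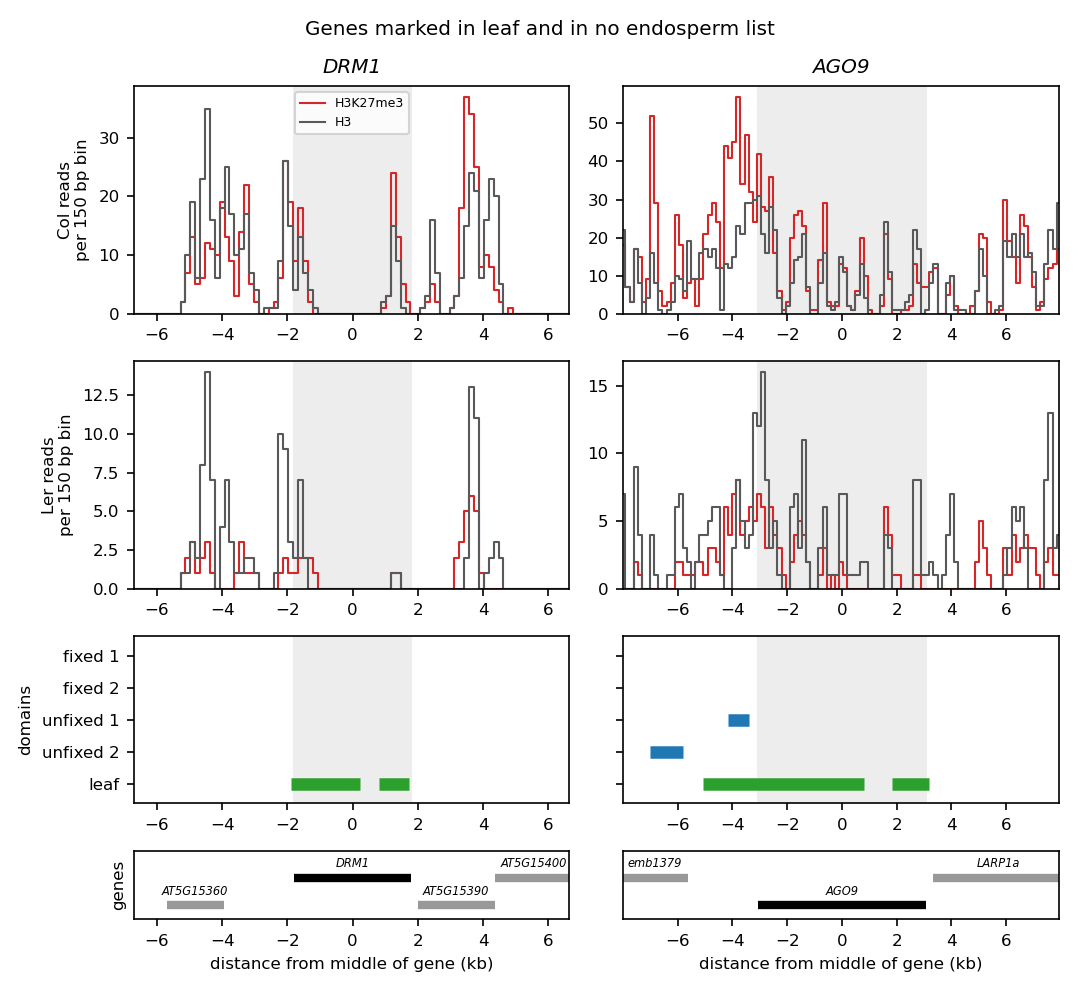
As the plot of SUVH9, VIM1 and RDR2, for DRM1 and AGO9, with endosperm reads per 150 bp bin on Col and Ler, domains and genes against distance from the middle of the gene in kb. Leaf domains cover 81.2% of DRM1 and 82.9% of AGO9 and no endosperm domain meets either gene body, while 13 of 24 bins of DRM1 hold no allele-assigned read.

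Demethylases and the non-CG group were close to bare. DME had no domain in any list, and the nearest leaf domain lay 14898 bp away. DML3, a DME-like glycosylase, was covered over 7.42% and 24.7% in the fixed lists, 12.4% and 0% in the unfixed lists, and 24.7% in leaf. ROS1, the main demethylase of vegetative tissue, was covered over 17.4% in unfixed replicate 1 only, and DML2 in no list. Of the non-CG group, the methyltransferase CMT3, the demethylase of H3K9 IBM1, and the H3K9 methyltransferases KYP and SUVH5 had no cover in any list. CMT2 was at 17.5% in unfixed replicate 2 and 0.219% in leaf, and SUVH6 at 8.25% in fixed replicate 1 and 18.5% in unfixed replicate 1. Of the readers and other silencing genes, SUVH3, MOM1 and RDR6 had none, and SUVH1 was at 1.36% in leaf only.

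Over the 34 members, 18 had no cover in any list and 16 had some in at least 1, shares that compare with 57.9% and 42.1% of all genes. Of the 24 members not described one by one here, 17 had no cover in any list, and the highest value among them was the 19.7% of DMS3. Domains that lay over the described members touched 14 other genes, of which 12 were marked in all endosperm lists and in leaf, where 9.58% of all genes were. These genes were picked because such domains touch them, and several share a locus, so high cover follows largely from the choice.

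Fixation did not move the count: fixed and unfixed lists each held 4 marked members, and they were the same genes in each. The largest difference between treatments among the described members was that of RDR2, covered over 55.1% on average in fixed and 71.3% in unfixed lists (two-sided exact permutation test, p = 0.667, where 2 lists against 2 cannot go below 0.333). Without unfixed replicate 2, the same 4 members were marked in the other 3 endosperm lists, where 15.4% of all genes were.

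The read table gives a level in endosperm from counts of reads. The reads are pooled over endosperm libraries that are not named, and the endosperm lists were called from endosperm libraries too. The centre of the level and the widening of its SE also rest on genes that no list marks. For both reasons its calls are not independent of the domains. The level of a gene is the log2 of its H3K27me3 over H3 reads of both parents, scaled to the totals and set relative to the median of genes that no list marks, which lay at -0.53 before centring. A gene was called where the level was at least 2-fold from that median and its 95% interval excluded it. Of 29 members with at least 40 reads per antibody, 6 were called higher (20.7%) and none lower, where 19.2% of all tested genes were called higher and 1.23% lower. Without centring, 8.83% of all tested genes were called higher and 9.53% lower. The median level was 0.20 over the members tested and 0.22 over all genes tested. Each level is a single value for pooled libraries, and its SE covers counting and the unevenness of reads along genes, not variation between libraries.

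The 6 genes were those with most cover in endosperm. VIM1 had 3957 H3K27me3 and 982 H3 reads, a level of 1.86 ± 0.11 (SE). SUVH9, with 1890 H3K27me3 and 401 H3 reads, stood at 2.09 ± 0.16. RDR2, with 708 H3K27me3 and 291 H3 reads, stood at 1.13 ± 0.21. These 3 genes had reads in every bin of the body.

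VIM3 rests on 224 H3K27me3 and 59 H3 reads, with 14 of 23 bins empty, and had a level of 1.77 ± 0.43. Of 3 equal stretches of VIM3, the one with the lowest coordinates held no allele-assigned read. The one with the highest held 195 of 211 Col and 12 of 13 Ler reads of H3K27me3. It also held 39 of 40 Col and all 19 Ler reads of H3, so the level of VIM3 describes mainly that end. VIM2 had 270 H3K27me3 and 46 H3 reads and a level of 2.39 ± 0.47. VIM4 had 468 H3K27me3 and 55 H3 reads and a level of 2.93 ± 0.42. VIM2 and VIM4, unmarked by cover, were thus 5.25-fold and 7.62-fold above the median of unmarked genes by reads. Of 3 equal stretches of VIM4, the one with the highest coordinates held 466 of the 468 H3K27me3 reads and all 55 H3 reads. Domains covered 85.4% of it in every endosperm list. The middle stretch of VIM2, which no list covers, held 1 Col and 1 Ler read of H3K27me3 and no H3 read. The levels of VIM2 and VIM4 thus do not describe their uncovered middle stretches. Counted over bins that lie wholly in the gene, VIM2 and VIM4 had too few reads to be tested. The doubt over close copies bears on the levels of all VIM genes.

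Along RDR2 the level was 1.91 ± 0.33 in the stretch with the highest coordinates, 0.48 ± 0.33 in the middle and 0.23 ± 0.53 in the lowest. Along SUVH9 it was 2.03 ± 0.35, 2.42 ± 0.32 and 1.91 ± 0.23 from the lowest to the highest stretch. The unmarked relatives lay near the median: SUVH2 at 0.26 ± 0.24, RDR6 at 0.05 ± 0.37, and DRM2 at 0.34 ± 0.39.

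For the genes marked in leaf only, endosperm reads gave AGO9 a level of -0.09 ± 0.19 from 511 H3K27me3 and 491 H3 reads. DRM1 stood at 0.26 ± 0.46 from 96 H3K27me3 and 72 H3 reads, an interval from -0.64 to 1.17 that does not exclude a 2-fold higher level. Over the 24 members not described one by one, 19 could be tested, and their levels ran between -0.69 for RDM1, a part of the complex that helps Pol V on chromatin, and 0.47 for NRPE1. The other 5 members had too few reads: MET1 (62 H3K27me3 and 35 H3 reads), SUVH1 (28 and 74), KYP (35 and 17), SUVH5 (0 and 2) and DRD1 (0 and 0). These 5 are given by their domain cover alone.

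**Figure D4:**
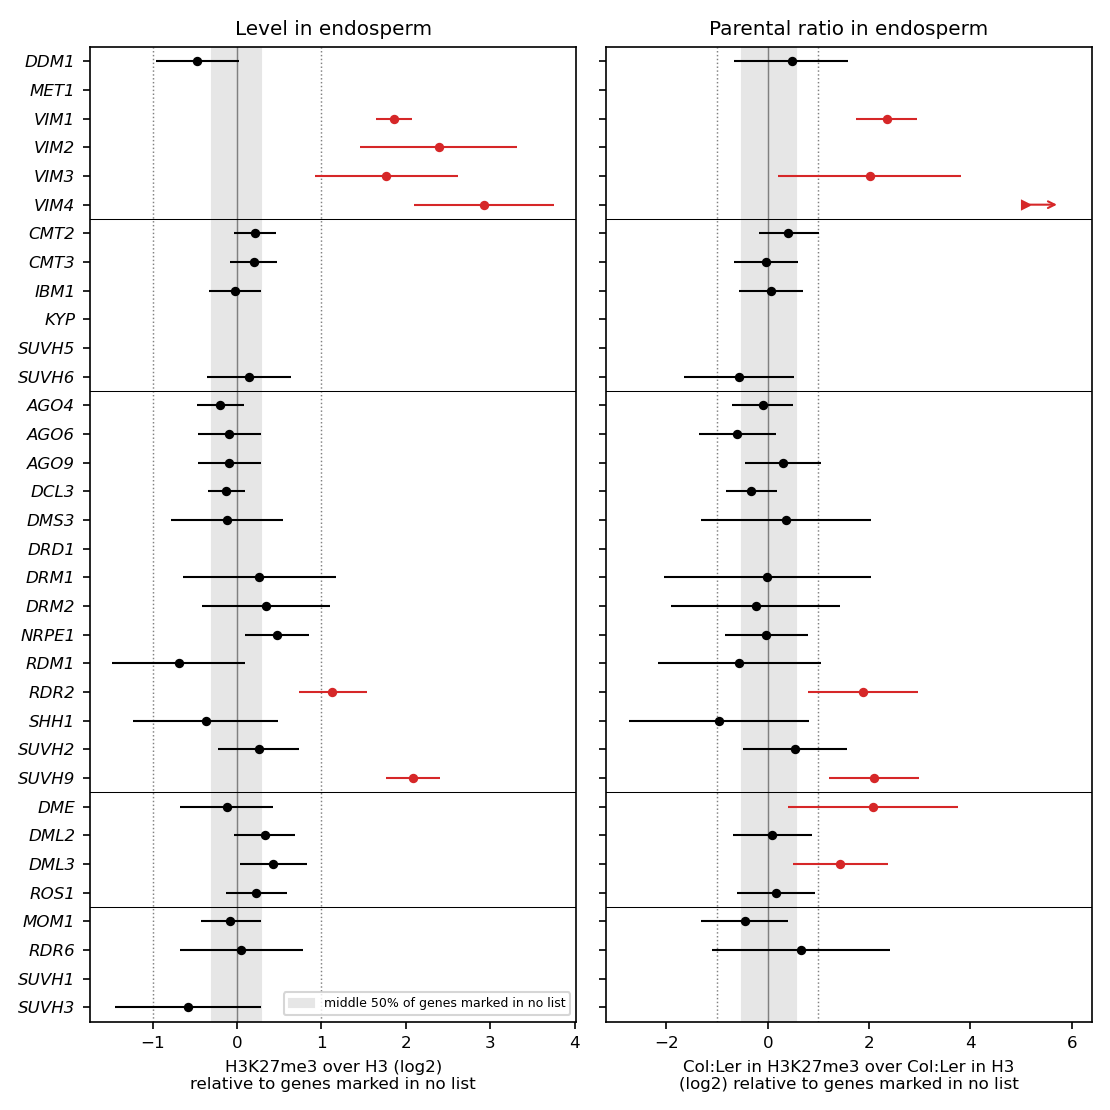
Left, the level of H3K27me3 over H3 (log2) in endosperm, and right, the parental ratio (log2), both relative to the median of unmarked genes, for members with enough reads. Bars are 95% intervals, red marks called genes, and the grey band holds the middle 50% of genes marked in no list. Dotted lines mark a 2-fold difference, and the arrow is a lower bound for VIM4 that leaves out the error of the H3 reads. The 6 called levels are those of VIM1, VIM2, VIM3, VIM4, SUVH9 and RDR2, and the 7 called ratios all lie toward Col.

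Reads were then split by parent. The parental ratio divides Col:Ler of H3K27me3 by Col:Ler of H3, on the log2 scale, relative to the median of unmarked genes, which lay at 0.91 before centring. Over the whole table Col made up 90.4% of H3K27me3 and 81.2% of H3 reads. The H3 reads stand at 4.31 Col per Ler read, above the 2 to 1 of the genomes in endosperm. The part of mapping preference or maternal tissue in this excess, and in the ratios, was not tested. Of 27 members with enough reads, 7 were called toward Col (25.9%) and none toward Ler, where the shares of all tested genes were 7.83% toward Col and 2.82% toward Ler. Toward Col were 34.3% of genes marked in all endosperm lists and 2.62% of genes marked in no list. Over all genes, calls toward Col were 73.5% of calls; without centring they were 99.8%, and with the overall ratio of each antibody removed 47.5%.

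All 4 members marked in endosperm were among the 7. SUVH9 had 1840 Col and 50 Ler reads of H3K27me3, a Col share of 97.4% in H3K27me3 (Wilson interval at 95%, 96.5% to 98.0%) and 82.0% in H3 (78.0% to 85.5%). VIM1 had 3860 Col and 97 Ler reads of H3K27me3, and Col shares of 97.5% in H3K27me3 (97.0% to 98.0%) and 80.5% in H3 (78.0% to 82.9%). RDR2 had 680 Col and 28 Ler reads of H3K27me3, and Col shares of 96.0% in H3K27me3 (94.3% to 97.2%) and 77.7% in H3 (72.5% to 82.1%). VIM3, with 13 Ler reads of H3K27me3, had Col shares of 94.2% in H3K27me3 (90.3% to 96.6%) and 67.8% in H3 (55.1% to 78.3%).

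The parental ratio was 2.1 ± 0.45 for SUVH9, 2.35 ± 0.31 for VIM1, 1.88 ± 0.56 for RDR2 and 2.01 ± 0.92 for VIM3 (SE). VIM3 was no longer called with the overall ratio of each antibody removed, and its reads came mainly from the stretch with the highest coordinates. VIM4 had 468 Col and 0 Ler reads of H3K27me3 against 39 Col and 16 Ler reads of H3. With 3 counts in place of the 0, its ratio was at least 34.1-fold, a bound that leaves out the error of the H3 reads. Over bins wholly in the gene, VIM4 could not be tested, and the doubt over close copies bears on the ratios of all VIM genes as well. VIM2, with 9 Ler reads of H3, was not tested. VIM5, next to VIM1, stood at 2.39 ± 0.36.

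Per parent, Col and Ler differed in H3K27me3 relative to H3. On the Col genome VIM1 had 4.88 H3K27me3 reads per H3 read, SUVH9 5.59 and RDR2 3.01, all above the median of 1.22 over genes marked in no list; VIM1 and SUVH9 also lay above, and RDR2 below, the median of 4.07 over genes marked in all endosperm lists. On the Ler genome the same genes had 0.508, 0.694 and 0.431, on either side of the median of 0.647 over genes marked in no list and all below the median of 1.16 over genes marked in all endosperm lists. VIM3 had 5.28 on Col and 0.684 on Ler.

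**Figure D5:**
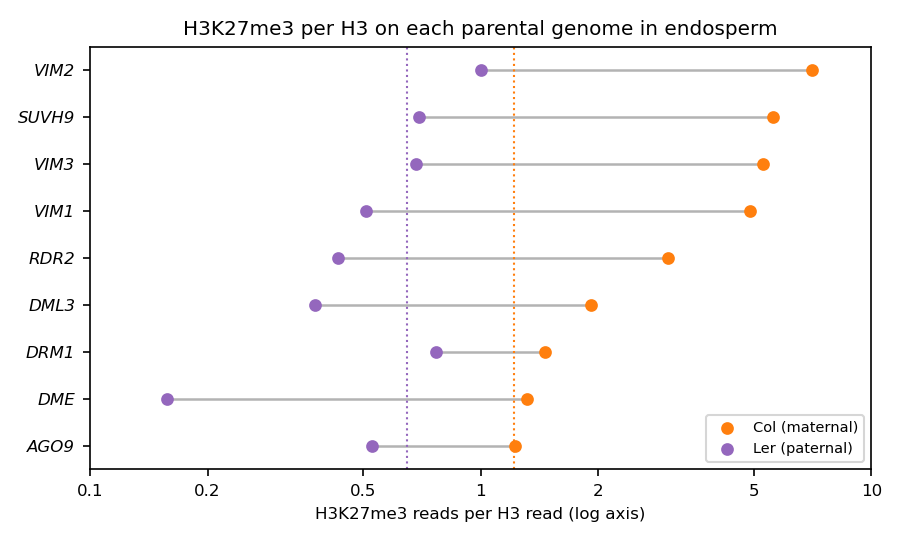
H3K27me3 reads per H3 read (log axis) on the Col and the Ler genome in endosperm for 9 of the described genes, with dotted lines at the medians of unmarked genes (1.22 on Col, 0.647 on Ler). VIM2, SUVH9, VIM3, VIM1 and RDR2 lie at 3.01 or more on Col, whereas on Ler every gene lies at 1.00 or less. VIM2 has only 37 Col and 9 Ler reads of H3 and was not tested for the parental ratio. VIM4 has no Ler read of H3K27me3 and is not shown.

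Both demethylase calls came without a domain over most of the gene. DME had 217 Col and 9 Ler reads of H3K27me3 against 165 Col and 57 Ler reads of H3, and a ratio of 2.08 ± 0.86. Col made up 96.0% of its H3K27me3 reads (92.6% to 97.9%) and 74.3% of its H3 reads (68.2% to 79.6%). Its level over both parents was -0.12 ± 0.28. On Ler, DME had 0.158 H3K27me3 reads per H3 read, below the median of 0.647, and on Col 1.32, close to the median of 1.22. Of 3 equal stretches of DME, the one with the lowest coordinates held all 9 Ler reads, and 32 of its 63 bins held no read.

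DML3 had 515 Col and 38 Ler reads of H3K27me3 against 268 Col and 101 Ler reads of H3, and a ratio of 1.43 ± 0.48. Its level was 0.43 ± 0.20. DML2 stood at a ratio of 0.09 ± 0.40 and ROS1 at 0.16 ± 0.39. Over the members not described one by one, 18 ratios ran between -0.96 for SHH1, which guides Pol IV to chromatin, and 0.66 for RDR6. AGO9 and DRM1, marked in leaf only, stood at 0.31 ± 0.39 and -0.01 ± 1.04.

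Further genes of the pathway outside the 34 were read in the same way. Of 63 listed, 52 were found in the annotation. Of these, 4 were marked in all endosperm lists (7.69%, against 11.9% of all genes) and 6 in leaf (11.5%, against 20.3%). Without unfixed replicate 2, 7 were marked in the other 3 endosperm lists (13.5%, against 15.4% of all genes). VIM5 and the H3K9 methyltransferase homologue SUVH7 were covered over 100% in all 5 lists, with levels of 2.37 ± 0.13 and 2.22 ± 0.15. SUVH8 was covered over 99.5% and 66.1% in fixed, 100% and 59.5% in unfixed and 100% in leaf lists. SUVH10 was covered over 100% in both fixed lists, 100% and 88.5% in the unfixed lists and 0% in leaf. By reads, SUVH8 had a level of 0.75 ± 0.22 that was not called. SUVH10, with 14 H3K27me3 and 2 H3 reads, could not be tested.

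Some further genes had cover in all endosperm lists and none in leaf, as RDR2 did. DCL4, which dices trans-acting siRNAs, was covered over 43.7% and 77.8% in the fixed lists, 94.1% and 49.0% in the unfixed lists and 0% in leaf, with a level of 1.42 ± 0.15 and a parental ratio of 1.47 ± 0.34. AGO10, an Argonaute of the shoot meristem, was covered over 75.6% and 68.3% in the fixed lists, 73.0% and 41.4% in the unfixed lists and 0% in leaf, with a level of 1.06 ± 0.18 and a parental ratio of 0.57 ± 0.36 that was not called. The histone deacetylase gene HDA6 was covered over 94.8% and 63.2% in the fixed lists, 100% and 36.9% in the unfixed lists and 0% in leaf, but its level of 0.07 ± 0.38, with 10 of 19 bins empty, was near the median of unmarked genes. AGO3 went the other way, with 1.81% and 0% in the fixed lists, 26.9% and 40.3% in the unfixed lists and 62.3% in leaf. MORC2 was covered over 87.3% and 91.0% in the fixed lists, 85.5% and 0% in the unfixed lists and 89.1% in leaf, and FDM2 over 34.4% and 87.2% in the fixed lists, 53.0% and 17.1% in the unfixed lists and 100% in leaf. IDM2 was covered over 100% in fixed replicate 1 and at most 6.93% in any other list.

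By reads, 4 of the 44 further genes tested were called higher in level (9.09%, against 19.2% of all genes tested). In level, 1 gene, MBD10, was called lower, where 1.23% of all genes tested were. Of 43 tested for the parental ratio, 4 were called toward Col and 4 toward Ler (9.30% each), against 7.83% and 2.82% of all genes tested.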

How the data were processed

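The authors deposited 1 list of H3K27me3 domains for each of 5 libraries, with a deposited p-value or q-value for every domain, of unstated kind, and an enrichment taken as log2, whose base is unstated. They also deposited whole-number counts of reads in 150 bp bins, pooled over libraries, by parent and antibody. Per the submitters' processing notes, the build was TAIR10 and the tools included Bowtie2, SICER, Picard, Trim Galore and deepTools 2.0, in unstated roles. The assignment of reads to parents and each library's depth were not given in the sources used here. IgG, seed coat and embryo libraries were not analysed here.

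Genes came from RefSeq's TAIR10.1 table, whose nuclear chromosomes were taken to share TAIR10 coordinates; printed positions are those of the authors' domains, counted from 1. The table gives no strand, and no sequences were used. The members and lists were chosen with earlier results of these data known. Cover was computed per gene body. Bins counted for a gene when their midpoint lay in it (alternative: bins wholly in it). Log ratios had 0.5 added to each count. Parental ratios needed 40 reads per antibody and 10 Ler reads of H3. Counting SEs were multiplied by 2.07 for levels (7595 genes) and 1.63 for parental ratios (6071 genes), the factor by which the 2 equal stretches of unmarked genes differed beyond counting error. Wilson intervals cover counting error only. On simulated counts with this spread, a simulated log2 change of 2 was recovered in 99.4% of 172 tested genes for levels (19965 genes tested) and 83.3% of 186 for parental ratios (17218 genes tested); of unchanged genes 0.657% and 2.94% were called. The simulations used no centring. Members were described one by one where domains covered at least 25% of the body in any list or a level or ratio was called; further pathway genes were named where marked in at least 1 list. The labels do not say whether replicates came from separate plants. Python 3.11.15, numpy 2.4.6, pandas 2.3.3 and scipy 1.17.1 were used.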

Additional observations from a re-analysis of the deposited data

Results flagged for a closer look

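Over the 4 endosperm lists taken as a group, 1 list stood apart from the other 3 in the cover of 4 of the 10 described members: VIM1 (98.4% in fixed replicate 2), VIM3 (96.5% in unfixed replicate 2), VIM4 (45.4% in fixed replicate 2) and RDR2 (85.7% in unfixed replicate 1). Chance alone sets apart about 1 in 20 such groups. For VIM1, VIM3 and VIM4 the other 3 values are equal, so any difference is flagged and that rate does not apply. DRM1, DME and AGO9 had no cover in any endosperm list and could not be flagged. None of these values moved a gene across 50% cover.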

How the results depend on the processing

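Counts of marked members in endosperm ran from 3 (at 80% cover, where 6.89% of all genes were marked) to 6 (with any overlap, where 17.2% were), and RDR2 was the gene lost at 80% cover, at a p or q value of at most 0.001 and in the upper 75% of domains. Leaving out each endosperm list in turn gave 4 to 4, and the difference between fixed and unfixed lists stayed at 0 (0 to 0). Deviations in cover by replicate number were not correlated between fixed and unfixed lists (r = -0.03 over genes). Such a correlation cannot settle whether replicate numbers pair the libraries. With a replicate block the difference was 0 as well. Any overlap in place of 50% cover gave 9 members in leaf, where 26.7% of all genes were marked. At 80% cover VIM1 was lost in leaf, which left 2 members (DRM1 and AGO9), where 16.8% of all genes were marked. At least 100 reads per antibody left 3 members called higher in level (VIM1, SUVH9 and RDR2) of 22 tested, with 17.3% of all genes called higher, and no read minimum called 1 lower (SUVH1). Col reads alone left 4 of 27 called higher (19.8% of all genes), since VIM2 and VIM4 had under 40 Col reads of H3. Bins wholly in the gene left 4 of 27 called higher in level (19.0% of all genes) and 6 of 26 toward Col (7.75% of all genes). Without centring, 2 members were called lower in level (SUVH3 and RDM1), RDR2 fell to 0.61 and was not called, and 12 members were called toward Col; 36.2% of all genes were then called toward Col. With no widening of the SE, chosen after seeing the data, 16.0% of all genes were called toward Col, and the same 7 members. Adding 1000 bp before the start could not be run without strand; 1000 bp on both sides, also chosen after seeing the data, gave 4 members in endosperm and 4 in leaf, where 8.15% and 18.5% of all genes were marked. The motif and protein comparisons planned were not run, for want of sequences. Members with few allele-assigned reads have wide intervals or could not be tested. Whether depth or the assignment of reads to parents sets this limit was not tested.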
